A study of Sus scrofa with 9 samples.

Results

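The comparison described here spans the whole interval that the study sampled in the additional molar germs of the Wuzhishan miniature pig, from embryonic day 50 (E50) to E70. Additional molars are the permanent teeth that erupt behind the deciduous row and replace no milk tooth. At E50 the study places the first of them (M1) at the cap stage, with no second molar (M2) begun, and at E70 it places M1 at the late bell stage and reports little change in M2. At E60, the stage in between, M1 was at the bell stage and M2 was starting. Each stage had 3 Affymetrix Porcine Genome Arrays, so 6 of the 9 arrays enter the comparison, and the 3 E60 arrays are given beside it. The animals of all groups were untreated Wuzhishan embryos or fetuses of unstated genotype beyond the breed, and the germs were dissected from the mandible with the dental lamina attached. Germs of the same stage and litter were pooled, and each array is labelled a biological replicate, but no source used here says whether those of 1 stage came from different litters. The p-values therefore measure the spread between arrays, which may be technical. All 23999 probe sets of the 24123 that are not AFFX array controls were compared, on the log2 of the deposited MAS5 signal with values under 1 set to 1. Most space is given to the 8195 probe sets (34.1%) whose signal exceeded, on all 6 arrays, the 95th percentile of 23 control probe sets for foreign tags and bacterial Trp genes, and among them to those whose E60 mean lay between the means of both ends. Of the 23999 probe sets, 10069 carried 1 gene symbol, and genes were counted once, by their probe set with the highest mean signal, which gave 6567 genes, 3623 of them above background on all 6 arrays.

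A molar germ passes from cap to bell as its epithelium folds over the condensed dental papilla and divides into inner and outer enamel epithelium, stellate reticulum and stratum intermedium. The stellate reticulum is rich in hyaluronan and its binding proteins, and in the late bell stage odontoblasts and ameloblasts begin to differentiate at the cusp tips. Around the germ the dental follicle, and outside it the bone of the growing jaw with its osteoclasts, vessels and muscle, develop at the same time, and the exchange of BMP, WNT, FGF and hedgehog signals between epithelium and mesenchyme shapes the crown.

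The E50 arrays differed from the others in more than their tissue, and this touches every value below. Signals of 27 hybridisation spike-in probe sets had a geometric mean of 63310 at E50 and of 3571 at E70. The ratio of the 3′ to the 5′ probe set of EF1A, which rises when transcripts are copied incompletely, ranged from 49.2 to 55.8 on the E50 arrays and from 1.35 to 1.47 on the E70 arrays, and for GAPDH from 29.7 to 42.2 and from 4.36 to 6.47. For these measures the groups did not overlap, and the exact permutation test over the 20 arrangements of 6 arrays gave the smallest p it can give, 0.1 (two-sided). Stage and array quality cannot be told apart between E50 and E70. The E60 and E70 arrays lay much closer to each other, though not together. Their EF1A ratios (1.42 to 1.56 at E60) and background overlapped. Without overlap, GAPDH ratios ran from 6.98 to 9.24 at E60 and 4.36 to 6.47 at E70, beta-actin ratios from 30.1 to 34.9 and 22.9 to 26.3, poly-A spike-ins from 1367 to 1392 and 597 to 614, and hybridisation spike-ins from 4150 to 4268 and 3086 to 3938. The part of these gaps in any difference between E60 and E70 was not tested. The difference E70 minus E60, from a limma fit of those 6 arrays alone, is set beside many of the genes. The E50 arrays also varied more among themselves, with a median SD over probe sets of 1.03 on the log2 scale against 0.26 at E60 and 0.32 at E70, and the correlation of their log2 signals with each other (r between 0.60 and 0.68) was no higher than with the E70 arrays (between 0.60 and 0.70). Marker genes of tooth epithelium (CDH1, EPCAM) and of dental mesenchyme (MSX1, VIM) were above background on all arrays of each stage, while the epithelial integrin ITGA6 was so on 1 E50 array and on no later one. Of the enamel matrix genes AMELX and AMBN were so at E70 alone, and DSPP, the dentin matrix gene of mature odontoblasts, was not above background on more than 1 array of any stage.

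In total 728 probe sets (3.03% of those tested) were higher at E70 and 1149 (4.79%) were lower, in a limma fit of the 6 arrays with Benjamini-Hochberg adjusted p under 0.05. Among the 8195 probe sets above background on all 6 arrays, 245 (2.99%) were higher and 601 (7.33%) lower. In genes these were 157 higher (2.39%) and 389 lower (5.92%) of 6567, and 79 and 293 of the genes above background. Counts in the gene lists below are to be read against these shares of all genes. The E50 and E70 arrays did not overlap in 37.4% of all probe sets. The median change of all genes was -0.11. Both directions depended on the scaling of the arrays. With each array centred on its median signal, which moved the median change by 0.71, 78.4% of the calls were higher at E70 in place of 38.8%, and 84.6% in place of 29% above background. Calls of either direction also needed all 3 E70 arrays: leaving out any of them ended every call, with lowest adjusted p between 0.0824 and 0.0864, although 4417 to 4636 probe sets kept an unadjusted p under 0.05, against 6484 with all 6 arrays. Leaving out an E50 array, whose quality is in doubt, left 960 to 1360 probe sets higher and 1144 to 1548 lower. Of 116 called genes named by rule, 52 kept their call under each of the following changes that gave them a value: 3 scalings, another floor, a filter, all 9 arrays in the fit, weights per stage that count the E50 arrays less, another prior and each E50 array left out. A replicate block, and leaving out an E70 array, ended all 116. For genes described below that the rule named, calls lost under a scaling, with stage weights or without an E50 array are given beside them. Not repeated there, ST14, OVOL1, TCF7L2, TRAF6, MMP1 and LTA also lost their calls with another prior, and LTA with all 9 arrays.

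Most of the signal change from E50 to E70 was already present at E60. A step shared by E60 and E70 cannot be told apart from the array quality of E50. For 604 of the 846 called probe sets above background (71.4%) the E60 mean lay between the means of both ends, against 37.8% of the uncalled ones above background; a mean is more likely to fall between ends that lie far apart, and the E50 and E70 arrays enter both quantities. Taking the change from E50 to E70 as 100%, the median share present at E60 was 93.5% for probe sets that rose and 84.9% for those that fell. It was 92.2% for the uncalled ones above background and 91.9% over all probe sets, so a high share is no trait of the called ones alone. In 438 of the 846 probe sets this share was between 80 and 120%, while in 94 it was between 20 and 50% and in 27 between 0 and 20%. Of the 372 genes above background that passed the test, 52 also passed it in the same direction between E60 and E70, 7 of them rising and 45 falling. Over all genes 0.716% rose and 1.2% fell between E60 and E70. The genes are therefore described in 2 loose sets. The first holds groups with members that went on changing after E60, the second genes with most of their change present by then. Some genes of the first set had no later step past the test, and OAZ1 of the second had one. A step that did not pass does not show that the E70 level had been reached.

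**Figure D1:**
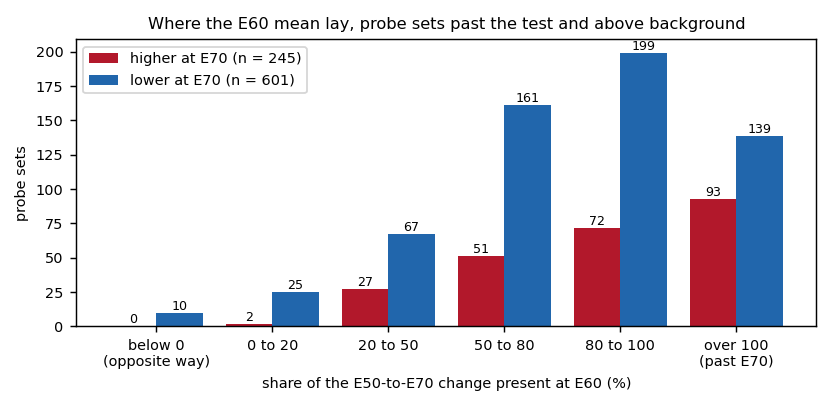
Number of probe sets (y axis) by the share of their E50-to-E70 change that was present at E60 (x axis, %), for the 245 probe sets that were higher and the 601 that were lower at E70 among those above background on all 6 arrays. In 72 and 199 of them the E60 mean lay within the last 20% of the way to E70, and in 93 and 139 it lay past the E70 mean.

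The largest rise among genes above background on all 6 arrays was that of DPT, dermatopontin, a small extracellular matrix protein that binds decorin and collagen. It read 254, 261 and 398 on the E50 arrays, 571, 565 and 585 on the E60 arrays and 4159, 4251 and 4352 on the E70 arrays. The 3 stages did not overlap and most of the increase fell after E60, by when 24.6% of it was present. DPT rose by 3.84 on the log2 scale (SE 0.31, 14.3-fold, adjusted p = 0.0142), and its difference E70 minus E60 was 2.89, adjusted p = 0.00326. On E50 replicates 1 and 3 its signal lay just above the background of 248 and 379, so the size of its rise from E50 is less certain. HAPLN1, the link protein that fixes proteoglycans to hyaluronan, read 786, 374 and 509.7 on the E50 arrays, 988, 816 and 1011 on the E60 arrays and 4826, 3207 and 3269 on the E70 arrays. It rose by 2.80 on the log2 scale (SE 0.40, 6.97-fold, adjusted p = 0.0242), with 29.1% of the rise present at E60 and a difference E70 minus E60 of 1.98, adjusted p = 0.0281. HAS3, one of the enzymes that make hyaluronan, read 1036, 846 and 984 on the E50 arrays, 1430, 2075 and 1554 on the E60 arrays and 5261, 4809 and 4169 on the E70 arrays. HAS3 rose by 2.31 on the log2 scale (SE 0.28, 4.96-fold, adjusted p = 0.018), and again the larger part of the rise came late, with 34.9% at E60 and a difference E70 minus E60 of 1.51, adjusted p = 0.0415. HAS3 and HAPLN1 were named for the size of a rise without overlap between E50 and E70. Both were also higher on every E70 array than on any E60 array. The cartilage gene ACAN (-1.97, adjusted p = 0.0304) and the hyaluronan receptor LYVE1 (-3.33, adjusted p = 0.0144), described below, fell from E50 to E70. FAM84A, a gene of little known function, read 960.4, 1020 and 965 on the E50 arrays, 3012, 3239 and 2501 on the E60 arrays and 6472, 5941 and 5106 on the E70 arrays and rose by 2.57 on the log2 scale (SE 0.27, 5.92-fold, adjusted p = 0.0149). Its step after E60 did not pass the test (1.00, adjusted p = 0.0694), nor did the change of its other probe set above background (0.93, adjusted p = 0.107).

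BMP4, the secreted ligand that mesenchyme and epithelium of the germ exchange from the bud stage on, read 749, 820.5 and 770.3 on the E50 arrays, 882, 1292 and 1083 on the E60 arrays and 4749, 3417 and 3120 on the E70 arrays. The E50 arrays lay close together, and the lowest E70 array stood above every E60 array. BMP4 rose by 2.25 on the log2 scale (SE 0.30, 4.75-fold, adjusted p = 0.0219), with 20.5% of the rise present at E60 and a difference E70 minus E60 of 1.79, adjusted p = 0.0419. ID1, a direct transcriptional target of BMP signalling, read 2936, 3376 and 3288 on the E50 arrays, 5175, 4638 and 4588 on the E60 arrays and 12120, 8414 and 10180 on the E70 arrays. It rose by 1.66 on the log2 scale (SE 0.29, 3.17-fold, adjusted p = 0.0339), without overlap between any stages, and its later step was 1.08, adjusted p = 0.065. They were the members called among 25 measured ligands, receptors, SMADs, inhibitors and targets of the BMP and TGF-beta pathways (2 higher, 0 lower). The list's median change was 0.60, against -0.11 over all genes, and 19 members had a change above 0. Another target, ID3, was at 0.31, adjusted p = 0.505, the receptors BMPR1A at 0.88, adjusted p = 0.109 and TGFBR1 at 1.69, adjusted p = 0.0859, the mediator SMAD1 at 0.74, adjusted p = 0.214, and the ligands BMP7 at 0.61, adjusted p = 0.311 and TGFB1 at -1.72, adjusted p = 0.0611. ID1 lost its call with stage weights or without E50 replicate 1.

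A few epithelial genes were called, all of them upward. Of 23 measured genes of epithelial junctions, keratins and epithelial regulators, 4 (17.4%) were higher at E70 and 0 lower, with a median change of 0.64 and 13 members above 0 and 10 below. EPCAM, an adhesion molecule of epithelia, read 805, 476 and 876 on the E50 arrays, 1131, 977 and 1056 on the E60 arrays and 2475, 2421 and 2239 on the E70 arrays. It rose by 1.77 on the log2 scale (SE 0.35, 3.42-fold, adjusted p = 0.0438), and its difference E70 minus E60 was 1.17, adjusted p = 0.0299. PERP, a desmosomal membrane protein of stratified epithelia, read 3802, 4898 and 4313 on the E50 arrays, 5648, 7196 and 6260 on the E60 arrays and 12500, 15790 and 12420 on the E70 arrays and rose by 1.64 on the log2 scale (SE 0.29, 3.12-fold, adjusted p = 0.0339). The other 2 called, the protease ST14 (adjusted p = 0.0313) and the transcription factor OVOL1 (adjusted p = 0.0426), did not exceed background on any E50 array, and their E70 signals lay under the mean E50 background, so no rise can be bounded for them. Between E60 and E70 KRT8 (1.28, adjusted p = 0.0258), CDH1 (1.11, adjusted p = 0.0382) and EPCAM passed the test, all upward. CDH1, the cadherin of epithelial junctions, read 1372, 1120 and 786 on the E50 arrays, 1138, 1026 and 1168 on the E60 arrays and 2484, 2563 and 2174 on the E70 arrays, and its change from E50 did not pass (1.17, adjusted p = 0.0917). KRT8, a simple-epithelium keratin, was lowest at E60, at 1822, 1585 and 1781, and read 3207, 2967 and 2048 at E50 and 3930, 4290 and 4375 at E70. EPCAM lost its call with quantile normalization or stage weights or without E50 replicate 1. PERP lost its call with stage weights or without E50 replicate 1. ST14 lost its call with stage weights or without E50 replicate 2. OVOL1 lost its call with quantile normalization or without E50 replicate 3. With the mean of all probe sets of a gene in place of the brightest, 5 of the list rose, 3 fell and the median turned to -0.05. In bulk tissue, more cells of a type and more RNA per cell cannot be told apart, here and in every group below.

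Of 5 enamel genes measured, none passed the test between E50 and E70 or was above background on all 6 arrays. AMELX, the main enamel matrix protein of secretory ameloblasts, read 379, 26.4 and 66.6 on the E50 arrays, 78.5, 29.4 and 62.1 on the E60 arrays and 400.2, 615 and 537 on the E70 arrays. All 3 E70 arrays exceeded every other array and their own background, but 1 E50 array was nearly as high as the lowest of them, and the change from E50 did not pass (2.54, adjusted p = 0.18), whereas that from E60 did (3.28, adjusted p = 0.0377). AMBN, a further enamel matrix gene, exceeded background on all 3 E70 arrays and on 1 array each at E50 and E60, at 39.9, 142 and 21.5 on the E50 arrays, 24.0, 57.4 and 7.38 on the E60 arrays and 116, 154 and 102 on the E70 arrays, and neither difference passed (1.30, adjusted p = 0.32 against E50 and 2.50, adjusted p = 0.182 against E60). ENAM, MMP20 and KLK4, which act during enamel secretion and maturation, exceeded background on 1, 2 and 1 of the 3 E70 arrays.

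**Figure D2:**
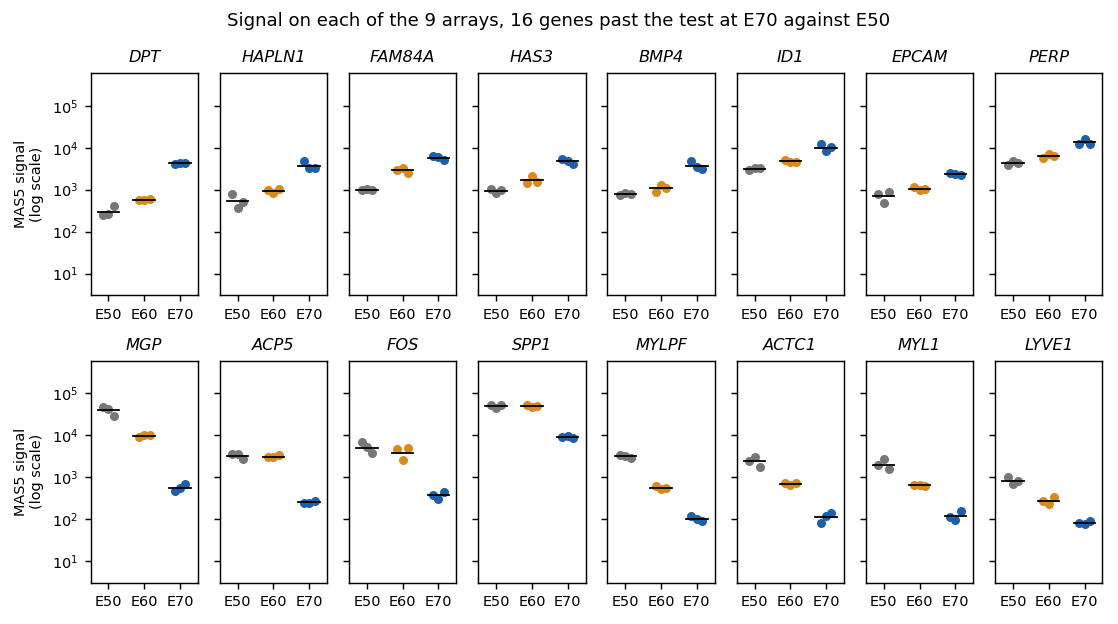
MAS5 signal (y axis, log scale) on each of the 3 arrays of E50, E60 and E70 (x axis) for 8 genes that rose and 8 that fell between E50 and E70; points are arrays and bars geometric means. In all 16 genes the E70 arrays lie apart from the E50 arrays, which for most of them was a condition of being named. MGP fell from between 28940 and 47780 to between 472 and 663.

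The largest fall among genes above background on all 6 arrays was that of MGP, matrix Gla protein, an inhibitor of mineralisation made by cartilage and vessel walls. It read 47780, 42730 and 28940 on the E50 arrays, 9069, 10070 and 9954 on the E60 arrays and 472, 554 and 663 on the E70 arrays. MGP fell by 6.13 on the log2 scale (SE 0.34, 69.8-fold, adjusted p = 0.00948), in steps on either side of E60, where 32.8% of the fall was present, and its difference E70 minus E60 was -4.12, adjusted p = 0.00326. SPP1, osteopontin, an acidic phosphoprotein of bone and of osteoclasts, read 51630, 43680 and 53390 on the E50 arrays, 51310, 46030 and 48420 on the E60 arrays and 9054, 9406 and 8461 on the E70 arrays. Its E50 and E60 arrays overlapped and the whole fall came after E60: SPP1 fell by 2.46 on the log2 scale (SE 0.27, 5.51-fold, adjusted p = 0.0156), and E70 minus E60 was -2.44, adjusted p = 0.00575. IBSP, bone sialoprotein, a nucleator of mineral in bone, read 2100, 1626 and 2385 on the E50 arrays, 9837, 10900 and 10480 on the E60 arrays and 146, 222 and 206 on the E70 arrays. It was highest at E60 and lowest at E70, fell by 3.42 on the log2 scale (SE 0.33, 10.7-fold, adjusted p = 0.0149), and E70 minus E60 was -5.79, adjusted p = 0.00314. BGN, the small proteoglycan biglycan, fell by 2.23 on the log2 scale (SE 0.28, 4.69-fold, adjusted p = 0.019), and SPARC, osteonectin, was lower by the same test (-2.08, adjusted p = 0.0232). These 5 of 15 genes of bone and dentin mineralisation (33.3%) were lower at E70, 0 were higher, and the list's median change was -1.24. Between E60 and E70 7 of its members fell and 0 rose. COL1A2, the type I collagen chain, did so as well (-0.96, adjusted p = 0.048), with -0.38, adjusted p = 0.616 from E50. BGLAP, osteocalcin, was not above background on any E50 array and was lower at E70 than at E60 (-2.18, adjusted p = 0.019). BGN lost its call with median centring.

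Other matrix genes of the follicle and mesenchyme were called mostly downward from E50. Of 31 measured, 5 (16.1%) fell and 1 (3.23%), DPT, rose, against 5.92% and 2.39% of all genes, with a median change of -0.73. ASPN, asporin, a leucine-rich proteoglycan of the periodontal ligament that binds collagen, read 7157, 5651 and 4659 on the E50 arrays, 19690, 20490 and 21060 on the E60 arrays and 883, 924 and 1025 on the E70 arrays. Like IBSP it was highest at E60, and it fell by 2.61 on the log2 scale (SE 0.30, 6.08-fold, adjusted p = 0.0169), with -4.44, adjusted p = 0.00304 for E70 minus E60. THBS2, a thrombospondin, was likewise highest at E60, at 2839, 2687 and 2581 on the E50 arrays, 4375, 4514 and 4334 on the E60 arrays and 828, 682 and 645 on the E70 arrays, and fell by 1.92 on the log2 scale (SE 0.27, 3.78-fold, adjusted p = 0.0237). S100A4, a calcium-binding protein of motile mesenchyme, fell by 1.87 on the log2 scale (SE 0.31, 3.65-fold, adjusted p = 0.0313). POSTN, periostin, fell from E60 to E70 (-2.11, adjusted p = 0.0167) without a change from E50 that passed the test (-0.06, adjusted p = 0.913), as did LUM, lumican (0.05, adjusted p = 0.933 from E50 and -1.38, adjusted p = 0.0444 from E60). The elastic fibre gene MFAP5 was higher at E70 than at E60 (2.41, adjusted p = 0.0167), with 0.41, adjusted p = 0.497 from E50. THBS2 lost its call with median centring. S100A4 lost its call with quantile normalization, median centring or stage weights. With median centring 1 member of the list fell.

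Among osteoclast genes the calls were falls, and those of the genes described here came mostly after E60. ACP5, the tartrate-resistant acid phosphatase by which osteoclasts are stained, read 3521, 3560 and 2682 on the E50 arrays, 2947, 3002 and 3267 on the E60 arrays and 245, 238 and 269 on the E70 arrays. The E50 and E60 arrays overlapped and every E70 array lay far below all of them. ACP5 fell by 3.69 on the log2 scale (SE 0.28, 12.9-fold, adjusted p = 0.0132), with 1.97% present at E60 and an E70 minus E60 difference of -3.62, adjusted p = 0.00314. CKB, the brain-type creatine kinase, which osteoclasts express strongly, fell by 2.35 on the log2 scale (SE 0.34, 5.09-fold, adjusted p = 0.0242), with -2.31, adjusted p = 0.00678 after E60. CTSK, the collagen-degrading cathepsin of osteoclasts, read 11840, 15010 and 15250 on the E50 arrays, 11250, 9689 and 11430 on the E60 arrays and 4526, 1927 and 3573 on the E70 arrays, and fell by 2.15 on the log2 scale (SE 0.41, 4.43-fold, adjusted p = 0.0424). The step of CTSK after E60 did not pass the test (-1.77, adjusted p = 0.0842). ATP6V0D2, a subunit of the osteoclast proton pump, exceeded background on all E50 and E60 arrays and on no E70 array, at least 7.73-fold lower (adjusted p = 0.016), where the bound sets the geometric mean signal at E50 over the geometric mean background at E70. In total 4 of 14 osteoclast genes (28.6%) fell and 0 rose, with a median change of -1.76, and 5 fell between E60 and E70. CKB lost its call with quantile normalization or median centring. CTSK lost its call with quantile normalization, median centring or stage weights or without E50 replicate 1, 2 or 3.

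Among genes of skeletal muscle fibres the calls were falls too. Of 33 measured, 12 (36.4%) fell and 0 rose, 6 of the fallen being above background on all 6 arrays, and the median change was -2.66. MYLPF, the fast skeletal regulatory light chain of myosin, read 3415, 3175 and 2839 on the E50 arrays, 617, 504 and 553 on the E60 arrays and 117, 98.8 and 87.3 on the E70 arrays. It fell by 4.97 on the log2 scale (SE 0.28, 31.2-fold, adjusted p = 0.00948), about as far on either side of E60 (50.2% present), with -2.47, adjusted p = 0.0108 for E70 minus E60. MYL1, the alkali light chain, fell by 4.08 on the log2 scale (SE 0.37, 16.9-fold, adjusted p = 0.0149), and TNNC2, the fast troponin C, fell by 3.17 on the log2 scale (SE 0.33, 9.03-fold, adjusted p = 0.0149), with -2.42, adjusted p = 0.0167 and -1.75, adjusted p = 0.0167 after E60. ACTC1, the actin of heart and of embryonic skeletal muscle, read 2446, 3060 and 1746 on the E50 arrays, 728, 640.2 and 732 on the E60 arrays and 80.3, 117 and 139.7 on the E70 arrays and fell by 4.43 on the log2 scale (SE 0.38, 21.5-fold, adjusted p = 0.0144). MYOZ1, a Z-disc protein, fell by 2.87 on the log2 scale (SE 0.34, 7.29-fold, adjusted p = 0.0176), with 84.3% of that present at E60. Between E60 and E70 3 of the list fell and 0 rose. The count of falls was 12 after quantile normalization and 11 with median centring. ACTA2, the smooth muscle actin of vessel walls and myofibroblasts, read 8260, 8397 and 10410 on the E50 arrays, 3540, 2845 and 3378 on the E60 arrays and 943, 1059 and 1176 on the E70 arrays and fell by 3.09 on the log2 scale (SE 0.28, 8.5-fold, adjusted p = 0.0149), with -1.62, adjusted p = 0.0231 after E60.

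Genes of macrophages and other leukocytes were called mostly downward. Of 34 measured, 8 (23.5%) fell, 1 (2.94%) rose, and the median change was -1.59. C1QC, a chain of the complement component C1q that tissue macrophages make, read 856, 756 and 1043 on the E50 arrays, 307, 277 and 359 on the E60 arrays and 92.5, 99.1 and 91.0 on the E70 arrays. It fell by 3.22 on the log2 scale (SE 0.28, 9.32-fold, adjusted p = 0.0144), with -1.73, adjusted p = 0.0167 after E60. MRC1, the macrophage mannose receptor, read 767, 583 and 776 on the E50 arrays, 414, 407 and 363 on the E60 arrays and 101, 109 and 116 on the E70 arrays, fell by 2.70 on the log2 scale (SE 0.28, 6.48-fold, adjusted p = 0.0149), and was at -1.86, adjusted p = 0.0117 after E60. AIF1, a microglia and macrophage protein, fell by 3.01 on the log2 scale (SE 0.42, 8.03-fold, adjusted p = 0.0234), most of it by E60 (77.0%). The member called upward, C1QA, another chain of the same component, exceeded background on no E50 array, so that no rise can be bounded, and differed from E60 by -0.54, adjusted p = 0.149. Between E60 and E70 6 members fell and 0 rose, C1QC and MRC1 among the former. AIF1 lost its call with median centring.

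Endothelial and pericyte genes were called downward alone. Of 23, 7 (30.4%) were lower at E70 and 0 higher, with a median of -0.90. LYVE1, the hyaluronan receptor of lymphatic endothelium and some macrophages, read 980, 697 and 814 on the E50 arrays, 262, 222 and 325 on the E60 arrays and 78.2, 77.0 and 91.0 on the E70 arrays. It fell by 3.33 on the log2 scale (SE 0.29, 10.0-fold, adjusted p = 0.0144), with 48.8% at E60 and -1.70, adjusted p = 0.0296 after it, whereas a dimmer probe set of LYVE1, not above background on all arrays, did not pass the test (adjusted p = 0.695). VCAM1, an adhesion molecule of activated endothelium, fell by 2.03 on the log2 scale (SE 0.29, 4.09-fold, adjusted p = 0.0243), nearly all of it after E60 (-1.86, adjusted p = 0.0249). ICAM1, another such molecule, fell by 2.48 on the log2 scale (SE 0.29, 5.57-fold, adjusted p = 0.0168). VCAM1 lost its call with median centring. PECAM1 and CDH5, which define endothelium, did not pass the test (-0.70, adjusted p = 0.178 and -0.70, adjusted p = 0.271), and their geometric mean signals were 1336 and 991 at E50, 1506 and 1191 at E60 and 823 and 609 at E70.

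Immediate early genes, which are induced within minutes by growth factors and other stimuli, fell in 6 of 19 members (31.6%) and rose in 0, with a median of -1.004. FOS, a subunit of the AP-1 transcription factor, read 6859, 5080 and 3698 on the E50 arrays, 4595, 2488 and 4863 on the E60 arrays and 375, 301 and 429 on the E70 arrays. The E50 and E60 arrays overlapped and the E70 arrays lay apart from both. FOS fell by 3.79 on the log2 scale (SE 0.36, 13.9-fold, adjusted p = 0.0149), and E70 minus E60 was -3.39, adjusted p = 0.0186. EGR1, a zinc finger factor of the same response, fell by 1.76 on the log2 scale (SE 0.33, 3.38-fold, adjusted p = 0.0413), with -1.31, adjusted p = 0.0361 after E60. GADD45B and ZFP36, both induced in the same way, were at -1.95, adjusted p = 0.0307 and -2.08, adjusted p = 0.0383, and their differences from E60 at -0.76, adjusted p = 0.0962 and -0.90, adjusted p = 0.209. EGR1 lost its call with quantile normalization, median centring or stage weights or without E50 replicate 1 or 3. GADD45B lost its call with quantile normalization or median centring. ZFP36 lost its call with quantile normalization, median centring or stage weights or without E50 replicate 1. After quantile normalization 1 of the list was called.

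**Figure D3:**
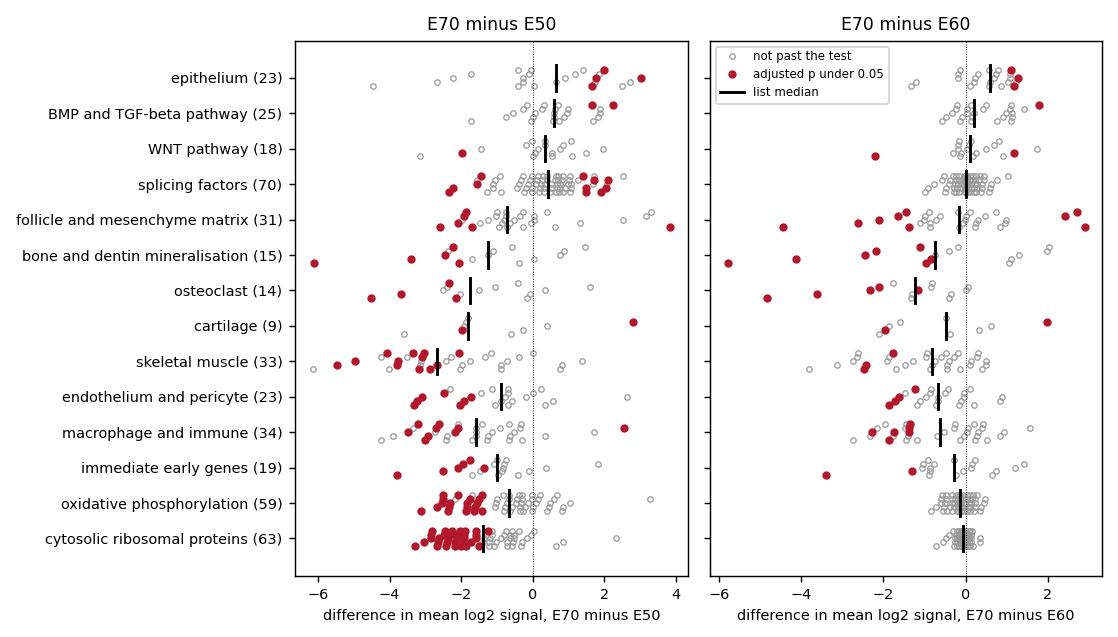
Difference in mean log2 signal (x axis) for each measured member of 14 gene lists (y axis, number of members in brackets), E70 minus E50 on the left and E70 minus E60 on the right; filled points passed the test at adjusted p under 0.05 and bars are list medians. On this MAS5 scaling most ribosomal and oxidative phosphorylation genes lie below 0 on the left (the median of the latter turned to 0.06 with median centring) and near 0 on the right, with no member past the test there, while bone, osteoclast and muscle genes have falls in both.

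A second set of genes had most of its change present by E60, and it moved together with the array quality described above. Of 63 cytosolic ribosomal proteins (with close paralogues), 32 (50.8%) were lower at E70 and 0 higher, with a median change of -1.38 from E50 and -0.07 from E60. RPS27 read 436900, 418500 and 469800 on the E50 arrays, 44190, 44270 and 48250 on the E60 arrays and 52370, 41410 and 41960 on the E70 arrays. The E60 and E70 arrays overlapped, all of them far below E50. It fell by 3.29 on the log2 scale (SE 0.27, 9.81-fold, adjusted p = 0.0142), with 99.5% present at E60, while a dimmer probe set of RPS27 above background on all 6 arrays did not pass the test (-0.76, adjusted p = 0.24). RPS29 read 361200, 334600 and 379200 on the E50 arrays, 44720, 49150 and 53600 on the E60 arrays and 57820, 50680 and 43380 on the E70 arrays and fell by 2.83 on the log2 scale (SE 0.28, 7.12-fold, adjusted p = 0.0149). The fall of ribosomal genes depended on the scaling: after quantile normalization their median change was -0.07, 1 was called, and RPS27 and RPS29 differed by -1.15 (adjusted p = 0.088) and -0.66 (adjusted p = 0.202). RPS27 and RPS29 lost their calls with quantile normalization.

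Subunits of the respiratory chain and ATP synthase behaved alike under the MAS5 scaling. Of 59, 19 (32.2%) were lower and 0 higher, with medians of -0.65 from E50 and -0.14 from E60, none passing the test between E60 and E70. COX7C, a small subunit of cytochrome oxidase, read 116200, 120900 and 88650 on the E50 arrays, 17880, 13250 and 12520 on the E60 arrays and 11270, 12110 and 14050 on the E70 arrays, and fell by 3.11 on the log2 scale (SE 0.29, 8.66-fold, adjusted p = 0.0149). The other small subunits NDUFB1 (-2.68, adjusted p = 0.0149), NDUFB2 (-2.52, adjusted p = 0.0157) and ATP5E (-2.53, adjusted p = 0.0154) fell too. After quantile normalization 14 of the list were lower, with a median of -0.79, and with median centring 7 were, with a median of 0.06. A dimmer probe set of COX7C, not above background on all arrays, was called in the other direction (adjusted p = 0.0215). Of 58 mitochondrial ribosomal proteins 8 (13.8%) were lower, MRPL33 (-2.06, adjusted p = 0.0253) and MRPL30 (-2.07, adjusted p = 0.0273) among them, and their median of -0.60 turned to 0.11 with median centring, when none was called. MRPL33 lost its call with median centring. MRPL30 lost its call with median centring or stage weights. A dimmer probe set of MRPL33 above background did not pass the test (0.09, adjusted p = 0.893).

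Further genes of very high signal were lower by E60. OAZ1, the antizyme that limits polyamine synthesis, read 152500, 152500 and 144500 on the E50 arrays, 34930, 32340 and 33840 on the E60 arrays and 9370, 5867 and 8024 on the E70 arrays, went on falling after E60 (-2.15, adjusted p = 0.0206), and fell by 4.30 on the log2 scale (SE 0.31, 19.7-fold, adjusted p = 0.0126). Another probe set of OAZ1 above background on all 6 arrays did not pass the test (-0.09, adjusted p = 0.875), so this fall rests on 1 probe set. B2M, the light chain of MHC class I, read 336400, 308400 and 315700 on the E50 arrays, 47480, 52090 and 52090 on the E60 arrays and 61110, 53430 and 42800 on the E70 arrays, with 101% of its fall present at E60, and fell by 2.62 on the log2 scale (SE 0.29, 6.16-fold, adjusted p = 0.0156). After quantile normalization B2M differed by -0.42 (adjusted p = 0.387), and of the dimmer probe sets of B2M above background on all 6 arrays 1 fell (-1.61, adjusted p = 0.0322) and 1 rose (1.96, adjusted p = 0.0262), so the direction of this gene is not settled. TMSB10, a thymosin that binds actin monomers, fell by 2.75 on the log2 scale (SE 0.28, 6.72-fold, adjusted p = 0.0149), against -0.57 (adjusted p = 0.267) after quantile normalization and -1.60, adjusted p = 0.0671 for its other probe set above background. Of 67 genes of the secretory pathway 8 (11.9%) fell and 1 (1.49%) rose. Among them SEC61B (-2.54, adjusted p = 0.0182) and SEC61G (-2.03, adjusted p = 0.0228), the small subunits of the translocon, fell, with 91.1% and 81.4% present at E60. B2M and TMSB10 lost their calls with quantile normalization. SEC61G lost its call with median centring.

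Several of the largest rises were complete or nearly so by E60, and 6 of them, chosen for the size of the rise, bind RNA or act in splicing. LUC7L3, a protein that associates with the U1 particle, read 756, 230.1 and 856 on the E50 arrays, 5812, 6210 and 5747 on the E60 arrays and 8009, 6147 and 6110 on the E70 arrays, and rose by 3.66 on the log2 scale (SE 0.58, 12.6-fold, adjusted p = 0.0292), with 95.1% at E60. CLK1, a kinase that phosphorylates SR splicing factors, read 798, 824 and 816 on the E50 arrays, 4813, 4641 and 5021 on the E60 arrays and 5230, 4502 and 5247 on the E70 arrays, and rose by 2.62 on the log2 scale (SE 0.26, 6.13-fold, adjusted p = 0.0149). Neither differed past the test between E60 and E70 (0.18, adjusted p = 0.607 and 0.05, adjusted p = 0.887). ZRANB2, RBM26, TRA2A and SF3B1, which bind RNA or belong to the spliceosome, rose by 2.51, 2.30, 2.10 and 2.06 on the log2 scale, and their E60 means lay beyond those of E70, but another probe set of RBM26 above background was at 0.06, adjusted p = 0.911. A dimmer probe set of SF3B1, not above background on all arrays, was at -1.69, adjusted p = 0.228. The splicing list as a whole had calls in both directions, the falls at about the share over all genes. Of 70 splicing factors 7 (10.0%) rose and 4 (5.71%) fell, against 2.39% and 5.92% of all genes. The median change was 0.44 from E50 and 0.01 from E60. The members that rose included SRSF11 (1.91, adjusted p = 0.0252) and HNRNPA3 (1.70, adjusted p = 0.0319), and those that fell the small Sm proteins SNRPG (-2.24, adjusted p = 0.0266) and SNRPF (-2.35, adjusted p = 0.0333). Another probe set of SNRPG above background did not pass the test (-1.68, adjusted p = 0.0713), and of the other such probe sets of SRSF11 1 was called upward (1.63, adjusted p = 0.0369) and 1 was not called. SRSF11, HNRNPA3 and SNRPG lost their calls with stage weights. The EF1A, GAPDH and spike-in values that part E50 from the other stages moved with this step and with that of the ribosomal and respiratory genes, and their part in it was not tested.

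Other rises with E60 in between were those of TTC14, a tetratricopeptide repeat protein (2.43, adjusted p = 0.0293), HBB, the beta globin chain (2.07, adjusted p = 0.0383), PPP4R3B, a regulatory subunit of protein phosphatase 4 (1.98, adjusted p = 0.0354), CD200, a membrane glycoprotein that restrains myeloid cells (1.95, adjusted p = 0.0474), and ALG13, a subunit of the enzyme that adds the second sugar of N-linked glycans (1.94, adjusted p = 0.0257). For each of these genes at least 77.0% of the rise was present at E60, and no step after E60 passed the test. HSPA13, an HSP70 family member (2.60, adjusted p = 0.0353), and ZNF277, a zinc finger protein (1.97, adjusted p = 0.0321), had E60 means just beyond those of E70. TTC14 lost its call with quantile normalization. HBB lost its call with quantile normalization or stage weights or without E50 replicate 2. PPP4R3B lost its call with quantile normalization or stage weights or without E50 replicate 1. CD200 lost its call with quantile normalization or stage weights or without E50 replicate 1 or 2. HSPA13 lost its call with quantile normalization or stage weights or without E50 replicate 3. ZNF277 lost its call with stage weights. Other falls with E60 in between were those of APOE, the lipid carrier of macrophages and other cells (-3.51, adjusted p = 0.0203), and of FAM216B (-3.41, adjusted p = 0.0144) and C4H1orf54 (-3.38, adjusted p = 0.0144), genes of little known function. FABP7, a fatty acid binding protein of glia (-2.74, adjusted p = 0.0164), and LTA, the cytokine lymphotoxin alpha (-2.53, adjusted p = 0.0329), were lowest at E60. LTA read 278, 296 and 413 on the E50 arrays, 2.33, 32.5 and 26.7 on the E60 arrays and 92.2, 39.2 and 48.6 on the E70 arrays, under background on all E60 arrays. APOE lost its call with stage weights. LTA lost its call with quantile normalization, median centring or stage weights or without E50 replicate 2.

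**Figure D4:**
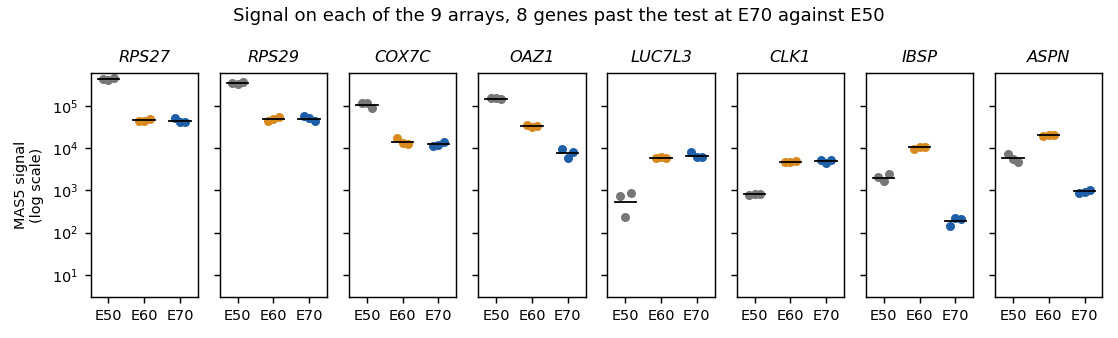
MAS5 signal (y axis, log scale) on each of the 3 arrays of E50, E60 and E70 (x axis) for 8 genes; points are arrays and bars geometric means. RPS27, RPS29, COX7C, LUC7L3 and CLK1 have overlapping E60 and E70 arrays apart from those of E50, OAZ1 stepped down at each stage, and IBSP and ASPN were highest at E60.

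Of the genes that the study examined further, 8 were measured when matched by symbol, 1 of them higher and 2 lower at E70, and since the study chose them on these stages their changes are no independent evidence. Apart from BMP4, MSX1, the homeobox factor of the dental mesenchyme that acts upstream and downstream of BMP4, read 3102, 2814 and 2818 on the E50 arrays, 1407, 1357 and 1510 on the E60 arrays and 764, 1299 and 963 on the E70 arrays. The 3 stages stepped downward without overlap between E50 and E70, MSX1 fell by 1.56 on the log2 scale (SE 0.32, 2.95-fold, adjusted p = 0.0474), and its later step did not pass the test (-0.53, adjusted p = 0.293). TCF4, a basic helix-loop-helix factor, read 159, 328 and 440 on the E50 arrays, 45.0, 48.8 and 38.2 on the E60 arrays and 59.8, 11.8 and 21.2 on the E70 arrays, above background on 2, 1 and 1 arrays per stage, and was lower at E70 (-3.53, adjusted p = 0.0493). The study describes the TCF4 it examined as acting downstream in the WNT pathway. Whether it meant this gene or the WNT effector TCF7L2, given below, was not settled here. MSX1 lost its call with median centring or stage weights or without E50 replicate 1, 2 or 3. TCF4 lost its call with quantile normalization, median centring or stage weights or without E50 replicate 1, 2 or 3. TGFB2, a TGF-beta ligand, read 632, 566 and 396 on the E50 arrays, 1756, 1541 and 1680 on the E60 arrays and 2429, 1262 and 2090 on the E70 arrays, a difference of 1.83, adjusted p = 0.0519, and another of its probe sets above background on all 6 arrays differed by -0.49 (adjusted p = 0.39). CTNNB1, beta-catenin, read 18190, 20080 and 18010 on the E50 arrays, 20160, 23220 and 20270 on the E60 arrays and 17120, 20950 and 18260 on the E70 arrays, a difference of -0.0022, adjusted p = 0.996 (SE 0.27), and DKK2, a modulator of WNT signalling, differed by -0.01, adjusted p = 0.988 (SE 0.33). Neither has a settled direction, since median centring turned the sign of both and quantile normalization that of CTNNB1. GLI1, the target and effector of hedgehog signalling, was at 1.12, adjusted p = 0.306, and the ligand WNT10B exceeded background on 1 E50 array and on no other and did not pass the test (adjusted p = 0.117).

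Among 18 genes of the WNT pathway 1 (5.56%), the effector TCF7L2 (-1.99, adjusted p = 0.0397), was lower and 0 were higher, with a median of 0.33. Over all genes 5.92% were lower and 2.39% higher. TCF7L2 lost its call with quantile normalization, median centring or stage weights or without E50 replicate 1 or 2. The receptors FZD2 (1.18, adjusted p = 0.049) and FZD5 (-2.19, adjusted p = 0.0393) differed between E60 and E70, one upward and one downward, and LEF1, a WNT effector of early tooth germs, was at 0.86, adjusted p = 0.122 from E50. Of 7 transcription factors of the tooth bud and cap MSX1 alone was called (14.3%), and TFAP2B and DLX5 were at -0.32, adjusted p = 0.502 and 0.88, adjusted p = 0.131. Of 7 genes tied to molar agenesis or to the inhibitory cascade of molars, BMP4 and MSX1 were called, INHBA, the activin A subunit, was at 0.01, adjusted p = 0.983 (SE 0.31), NFKBIA, an inhibitor of NF-kappaB, at -0.53, adjusted p = 0.309, and the activin receptor ACVR2A at 0.60, adjusted p = 0.434, while ACVR2B was not above background on any E50 array (adjusted p = 0.603).

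In the FGF and MAP kinase list 4 of 23 (17.4%) fell and 0 rose, with a median of -0.69, which median centring turned to 0.02. They were FOS and EGR1, described above, the kinase RPS6KA3 (-1.76, adjusted p = 0.0378), and the ligand FGF1 (adjusted p = 0.0168). FGF1 read 267, 306 and 119 on the E50 arrays, 5.22, 3.69 and 8.5 on the E60 arrays and 7.91, 3.54 and 9.57 on the E70 arrays and exceeded background on 2 E50 arrays and on no later array, so its change is a bound at most. Insulin-like growth factor genes fell in 2 of 12 (16.7%) with a median of -1.08. IGF1, the ligand, read 693, 362 and 561 on the E50 arrays, 116, 127 and 111 on the E60 arrays and 33.8, 52.0 and 35.1 on the E70 arrays. It fell by 3.72 on the log2 scale (SE 0.38, 13.1-fold, adjusted p = 0.0149). IGF1 exceeded background on 1 E70 array alone, so the size of its fall is less certain. Dimmer probe sets of IGF1, not above background on all arrays, did not pass the test (adjusted p = 0.295 and 0.743), the latter with the opposite sign. IGFBP5, a binding protein, read 1029, 904 and 1135 on the E50 arrays, 231, 212 and 217 on the E60 arrays and 216, 254 and 249 on the E70 arrays and had reached its lower level by E60. IGFBP5 fell by 2.09 on the log2 scale (SE 0.27, 4.26-fold, adjusted p = 0.0213). RPS6KA3 lost its call with quantile normalization, median centring or stage weights or without E50 replicate 1 or 2. APH1A lost its call with median centring or stage weights or without E50 replicate 2. TRAF6 lost its call with stage weights. Of 13 Notch genes APH1A, a gamma-secretase subunit, fell (-1.57, adjusted p = 0.0353), and ADAM17, a sheddase, was called upward from signals under background on every E50 array (adjusted p = 0.0142, at least 1.02-fold), with a list median of -0.23 that median centring turned to 0.48. TRAF6, an adaptor of NF-kappaB signalling, was the member called of 7 in the EDA list (adjusted p = 0.0235, list median 0.16); it exceeded background on the E70 arrays alone, where its signal lay under the mean E50 background, so no rise can be bounded. None of 6 hedgehog genes passed the test (list median 0.50).

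Among called genes, 76 exceeded background on all arrays of one stage and on none of the other, 66 of them on the E70 arrays and 10 on the E50 arrays; the lower background of the E70 arrays (38.1 to 55.8, against 77.7 to 379 at E50) moved with this split, its part in it was not tested, and for these genes only a bound of the change is given, from the brighter stage's geometric mean over the dimmer stage's geometric mean background. SCRG1, a secreted protein of cartilage and mesenchymal progenitors, read 5081, 5310 and 3098 on the E50 arrays, 379.8, 347 and 317 on the E60 arrays and 40.5, 26.2 and 34.3 on the E70 arrays, at least 93.6-fold lower at E70 (adjusted p = 0.00948). SLPI, a secreted protease inhibitor of mucosa, read 1805, 1685 and 1479 on the E50 arrays, 255, 317 and 302 on the E60 arrays and 8.41, 29.4 and 41.8 on the E70 arrays, at least 35.3-fold lower (adjusted p = 0.0149). Both fell in 2 steps, with 51.9% and 40.2% of the fitted change present at E60. FMO1, a flavin monooxygenase, was at least 13.9-fold lower (adjusted p = 0.0497), and CBR3, a carbonyl reductase, at least 10.2-fold lower (adjusted p = 0.0149), already under background at E60. In the other direction the bounds were smaller: at least 4.3-fold for ZNF146, a zinc finger gene, at least 4.02-fold for VPS13D, a lipid transfer protein, at least 2.78-fold for DCAF13, a nucleolar protein of ribosome assembly, and at least 2.77-fold for CREB3L2, a membrane-bound transcription factor of secretory cells (adjusted p = 0.0126, 0.0256, 0.0314 and 0.0126). FMO1 lost its call with median centring or stage weights or without E50 replicate 1, 2 or 3. DCAF13 lost its call without E50 replicate 1.

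Other lists cover further cell types that the dissection could hold. Of 9 cartilage genes HAPLN1 rose and ACAN, aggrecan, fell (-1.97, adjusted p = 0.0304), the latter after E60 (-1.97, adjusted p = 0.0353), and COL2A1, the cartilage collagen, was at -1.86, adjusted p = 0.143. Globin and haem genes had 1 rise, HBB, among 14 (median -0.90), while ALAS2, the first enzyme of erythroid haem synthesis, was at -2.998, adjusted p = 0.0538, and HBM, another globin chain, at -2.22, adjusted p = 0.0523. HBM fell between E60 and E70 (-1.87, adjusted p = 0.0242). Nerve and Schwann cell genes had 4 falls and 1 rise among 12: S100B, a calcium-binding protein of Schwann cells, was at -1.79, adjusted p = 0.0267, NCAM1, a neural adhesion molecule, at -1.79, adjusted p = 0.0369, the intermediate filament GFAP at -2.22, adjusted p = 0.0483, the neurofilament chain NEFL, above background on 1 array of each stage, at -3.08, adjusted p = 0.0261, and UCHL1, a neuronal hydrolase, rose (1.63, adjusted p = 0.0375). ACAN lost its call with quantile normalization, median centring or stage weights. S100B lost its call with median centring or stage weights. NCAM1 lost its call with median centring or stage weights or without E50 replicate 1. GFAP lost its call with quantile normalization, median centring or stage weights or without E50 replicate 1. UCHL1 lost its call with quantile normalization or stage weights or without E50 replicate 1 or 2. Another probe set of NCAM1 above background on all 6 arrays differed by 0.25 (adjusted p = 0.657). Of 11 matrix metalloproteinases and inhibitors MMP3 and MMP7 were called downward and MMP1 upward, none of them above background on all 6 arrays, and MMP1 with no bound above 1. MMP7 lost its call with median centring or stage weights or without E50 replicate 1, 2 or 3. MMP1 lost its call with quantile normalization or stage weights or without E50 replicate 1 or 3. None of 12 mucosal and glandular genes and none of 13 basement membrane and integrin genes passed the test, with medians of -1.28 and 0.58.

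The remaining housekeeping lists gave few calls. Glycolysis and the citric acid cycle had 1 rise and 1 fall among 37. GPI, the glycolytic isomerase, read 1746, 1759 and 1393 on the E50 arrays, 2220, 1910 and 2286 on the E60 arrays and 4378, 3928 and 4229 on the E70 arrays, and rose by 1.36 on the log2 scale (SE 0.27, 2.57-fold, adjusted p = 0.046), mostly after E60 (0.97, adjusted p = 0.0483), while LDHB, a lactate dehydrogenase, was lower (-1.49, adjusted p = 0.049). GPI lost its call with quantile normalization, 75th percentile centring or stage weights or without E50 replicate 1 or 2. LDHB lost its call with quantile normalization, median centring, 75th percentile centring or stage weights or without E50 replicate 1 or 2. Cell cycle and replication genes had 2 upward calls, POLE2 (at least 2.59-fold) and CCNA2 (no bound above 1), both under background on every E50 array, and 1 fall, H2AFZ (-2.02, adjusted p = 0.0234), among 42 (median 0.37). CCNA2 lost its call without E50 replicate 1 or 2. H2AFZ lost its call with quantile normalization or median centring. The counts were 2 rises and 3 falls of 50 for the cytoskeleton, 1 and 1 of 66 for chaperones, 1 and 0 of 57 for translation factors and tRNA ligases, 2 and 0 of 52 for ubiquitin conjugation, 0 and 1 of 40 for the proteasome, and 1 and 1 of 15 for genes in common use as references.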

How the data were processed

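RNA of pooled molar germs was hybridised to Affymetrix Porcine Genome Arrays, 3 per stage. The deposited values are probe set intensities on a linear scale, which per the labels the authors computed with MAS5 in GeneSpring; a version of MAS5 is not given in the sources used here. The trimmed mean, without 2% at each end, was 500.1 on every array, so the arrays had been scaled to a common level. Values were floored at 1 and log2 transformed, and 124 AFFX controls were set aside. Probe sets were named from the platform annotation updated through RefSeq: 10069 had 1 symbol, 198 several genes and 13732 none, and unnamed probe sets are counted but not described.

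E70 and E50 were compared by limma 3.58.1 in R 4.3.3 (lmFit and eBayes on the 6 arrays, Benjamini-Hochberg over 23999 probe sets), and E70 and E60 in the same way on their own 6 arrays. The comparisons share the E70 arrays, so their values are set side by side. Array numbers limit the precision. The code was tested on simulated data. Named genes were, among genes called, above background and without overlap between stages, the 12 largest rises and falls with the E60 mean in between and the 6 largest of each without, the 4 largest bounds each way, up to 4 called members of each of 38 lists, and the genes that the study examined further. Other list members were named after their values were seen. Members and lists were chosen with earlier results of these data known. The alternatives were quantile normalization, centring on the median or the 75th percentile, a floor of 16, all 9 arrays, stage weights, a trended robust prior, a filter on background, a replicate block, the mean of a gene's probe sets, and each array left out. No sequences were used here.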

Additional observations from a re-analysis of the deposited data

How the results depend on the processing

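The counts of higher and lower probe sets (728 and 1149) were 1575 and 2222 when only probe sets above background entered the fit, 1959 and 2551 with all 9 arrays, 1802 and 497 with median centring, 489 and 618 after quantile normalization, 1601 and 1790 with a trended robust prior, 407 and 461 with stage weights, and 1017 and 1376 with a floor of 16. Above background on all 6 arrays they were 245 and 601, against 958 and 1482 with all 9 arrays, 926 and 168 with median centring, 118 and 302 after quantile normalization, 1192 and 1274 with a trended robust prior, 66 and 242 with stage weights, and 375 and 818 with a floor of 16. Of the genes in lists 32 were higher and 139 lower, against 135 and 266 with the filter on background, 98 and 240 with all 9 arrays, 88 and 57 with median centring, 23 and 73 after quantile normalization, 127 and 248 with a trended robust prior, 14 and 70 with stage weights, and 62 and 181 with the mean of all probe sets of a gene. Leaving out 1 array at a time gave 0 to 1360 higher and 0 to 1548 lower probe sets, 0 to 314 and 0 to 631 above background, and 0 to 47 and 0 to 153 list members; each 0 belongs to an omitted E70 array. With a replicate block 0 probe sets were called by limma in either direction (5217 at an unadjusted p under 0.05). The replicate numbers share no stated litter or day, and deviations of same-numbered arrays correlated by -0.011, 0.0098 and -0.013. Centring on the 75th percentile left the counts at 675 and 1147.

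None of the 116 called genes named by rule changed sign under any alternative fitted to the same probe set. The mean of a gene's probe sets was not compared for them singly. Over all called probe sets 12 had the opposite sign with a floor of 16 and 8 after quantile normalization, none of them called there. Among uncalled named genes, median centring turned CTNNB1 to 0.71, DKK2 to 0.70, TFAP2B to 0.39 and NFKBIA to 0.18, quantile normalization turned CTNNB1 to 0.55, and centring on the 75th percentile turned INHBA to -0.003. With 1 array left out CTNNB1 ranged from -0.084 to 0.062, DKK2 from -0.21 to 0.21 and INHBA from -0.17 to 0.12. Why these counts and signs moved was not tested, except that leaving out an array reduces the residual degrees of freedom. The 3 E50 arrays, of poor 3′ to 5′ ratio and high background, limit every comparison with E50, since they are the whole of that stage.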
